A study of Mus musculus with 6 samples.

Results

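The genes of 9 pattern-recognition and uptake receptors of macrophages were followed in RAW264.7, an established mouse line of macrophage-like cells. They were taken by symbol from a list (Mrc1, Msr1, Cd36, Scarb1, Clec7a, Clec4n, Cd68, Mertk and Axl), and all 9 were found among the 16108 genes of the deposited expression table. The study cultured the cells on acoustic devices for 48 h. In the acoustics-on group a 5 kHz signal of 18 V, measured peak to peak, was applied, and in the acoustics-off group the cells sat on the same kind of device with no drive. Each group had 3 RNA-seq libraries. All 6 came from 1 established line at the third passage, so they hold no other cell type by design, and a petri-dish group named by the study was not analysed here. Nothing in the labels ties the libraries to separate cultures, so the p-values speak only of the spread among these 6 samples, and that spread may be technical. Bulk RNA cannot tell apart fewer cells that carry a transcript and less of it per cell.

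These receptors sit on the macrophage surface or in its endosomes. They bind sugars, lipids or modified proteins, or recognise dying cells directly or through bridging proteins. Most of these receptors carry what they bind into the cell. The mannose receptor (Mrc1) takes up glycoproteins that end in mannose, and is widely used as a marker of alternatively activated macrophages. The scavenger receptors SR-A (Msr1), CD36 (Cd36) and SR-BI (Scarb1) bind modified or native lipoproteins, and CD36 also takes up long-chain fatty acids. Dectin-1 (Clec7a) recognises fungal beta-glucan and dectin-2 (Clec4n) fungal mannan, and both signal through the kinase SYK, dectin-1 by a motif in its own tail and dectin-2 through the Fc receptor gamma chain. Macrosialin (Cd68) is a heavily glycosylated protein of the lysosome and endosome membrane and a general macrophage marker. MERTK and AXL are receptor tyrosine kinases of the TAM family, which recognise dying cells through the bridging proteins GAS6 and protein S.

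RefSeq (GRCm38.p6) gave the sequence upstream of the start site for 6 of the 9 genes. The 250 bases before the start are shown for Mrc1, which fell, for Cd36, which rose, and for Clec7a and Cd68, whose values were lower in several acoustics-on libraries. Capitals mark matches to 6 motifs searched on both strands: GAGGAA (the core bound by the macrophage factor PU.1), TGANTCA (AP-1), TGACNNNGC (the antioxidant response element), the STAT6 pair of half-sites (TTC and GAA with 4 bases between them), TTGCNNAA (C/EBP) and CACGTG (the E-box of MITF and its relatives).
Mrc1 (chr2:14229164-14229413, plus strand): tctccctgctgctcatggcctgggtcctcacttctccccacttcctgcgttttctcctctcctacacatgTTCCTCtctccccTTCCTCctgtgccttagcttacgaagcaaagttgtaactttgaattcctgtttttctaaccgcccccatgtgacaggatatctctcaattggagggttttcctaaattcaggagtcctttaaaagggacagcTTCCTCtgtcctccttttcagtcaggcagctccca
Cd36 (chr5:17835897-17836146, minus strand): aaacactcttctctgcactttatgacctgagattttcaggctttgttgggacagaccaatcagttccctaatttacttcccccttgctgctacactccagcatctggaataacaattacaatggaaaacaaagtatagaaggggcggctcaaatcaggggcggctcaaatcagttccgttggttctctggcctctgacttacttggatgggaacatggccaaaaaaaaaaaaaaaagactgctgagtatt
Clec7a (chr6:129472780-129473029, minus strand): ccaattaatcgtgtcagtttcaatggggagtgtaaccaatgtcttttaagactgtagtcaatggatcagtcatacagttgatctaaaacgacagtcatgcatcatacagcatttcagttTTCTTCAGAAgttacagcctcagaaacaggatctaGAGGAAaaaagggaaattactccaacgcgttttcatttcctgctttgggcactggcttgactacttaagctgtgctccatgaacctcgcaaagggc
Cd68 (chr11:69666171-69666420, minus strand): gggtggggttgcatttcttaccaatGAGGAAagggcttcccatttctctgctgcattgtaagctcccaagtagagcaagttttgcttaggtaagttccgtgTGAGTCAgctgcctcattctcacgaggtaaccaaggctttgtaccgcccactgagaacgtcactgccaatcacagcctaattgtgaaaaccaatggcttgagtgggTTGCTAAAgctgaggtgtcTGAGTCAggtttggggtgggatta
The Mrc1 window held the PU.1 core 3 times, each on the minus strand, beginning 180, 167 and 35 bases before the start. Over 32851 mouse windows of this length, 23.3% held that core at least once and 0.429% at least 3 times. The Clec7a window shown held 1 PU.1 core and 1 STAT6 match (5.85% of windows). Another RefSeq window of Clec7a (chr6:129472786-129473035) overlaps it, held the same matches and is not printed. The Cd68 window held 1 PU.1 core, 1 C/EBP match (9.56% of windows) and 2 AP-1 matches (6.75% of windows held at least 1 and 0.338% at least 2). None of the 6 motifs was matched in the Cd36 window, and 22 bases at the end of the Mrc1 window lie in a GENCODE exon of Mrc1. The Cd36 window lies wholly inside the longer GENCODE gene model of Cd36, in no exon of it. The windows of Mertk, which was lower in each acoustics-on library, and of Axl were searched too and are not printed. In the Mertk window none of the 6 motifs was matched, and the Axl window held 1 PU.1 core. These are matches of letters and say nothing about binding in these cells.

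Among the receptors Cd68 was by far the most abundant transcript. Levels are in FPKM, fragments scaled to transcript length and to library size, so that genes can be compared. With acoustics on this comparison is limited by a trend with transcript length, given below, which was not taken out of these levels. Summed over all genes, FPKM ran from 821818 to 840707 in acoustics-off libraries and from 716509 to 1000722 in acoustics-on libraries. With acoustics off the order was Cd68 (1735 ± 32.3 FPKM, SD, n = 3), Cd36 (230.6 ± 6.91), Msr1 (228.7 ± 12.2), Clec7a (95.6 ± 4.05), Scarb1 (71.9 ± 1.11), Mrc1 (43.0 ± 4.27), Clec4n (14.9 ± 1.57), Mertk (5.46 ± 0.66) and Axl (1.22 ± 0.47). Cd36 and Msr1 did not differ beyond their spread, and every other pair of neighbours in this order was apart by more than the SDs. With acoustics on Cd68 (1435 ± 128 FPKM) and Cd36 (403.2 ± 40.9) still led, followed by Msr1 (157.3 ± 65.2), Scarb1 (77.5 ± 6.88), Clec7a (63.6 ± 33.7), Clec4n (40.5 ± 17.2), Mrc1 (6.45 ± 6.49), Mertk (3.22 ± 1.28) and Axl (1.22 ± 0.94). There the neighbours from Scarb1 to Clec4n, and from Mrc1 to Axl, lay within their spreads. The authors' deposited mean of normalised counts ran from 175.8 for Axl to 66846 for Cd68, so that counting error alone is a coefficient of variation of 7.54% for Axl and 0.39% for Cd68. This covers counting error only.

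All 8 macrophage markers checked were expressed in all 6 libraries, with summed levels of 26461 to 28721 FPKM with acoustics off and 18601 to 25347 with acoustics on, most of it Lyz2. Markers of other cells were low. The summed fibroblast markers (5 of 6 in the table) stayed at 1.30 to 2.02 FPKM off and 0.76 to 3.08 on, and those of epithelial, endothelial and B cells at no more than 0.22. Of the neutrophil markers, S100a8 alone was analysed here, and it went from 0.09 to 0.18 FPKM off to 1.52 to 6.97 on without passing the test (limma adjusted p = 0.053). Dendritic cell markers (2 of 4 in the table) summed to 1.70 to 2.04 FPKM off and 1.44 to 1.94 on. The part of these levels in the receptor results was not tested.

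**Figure D1:**
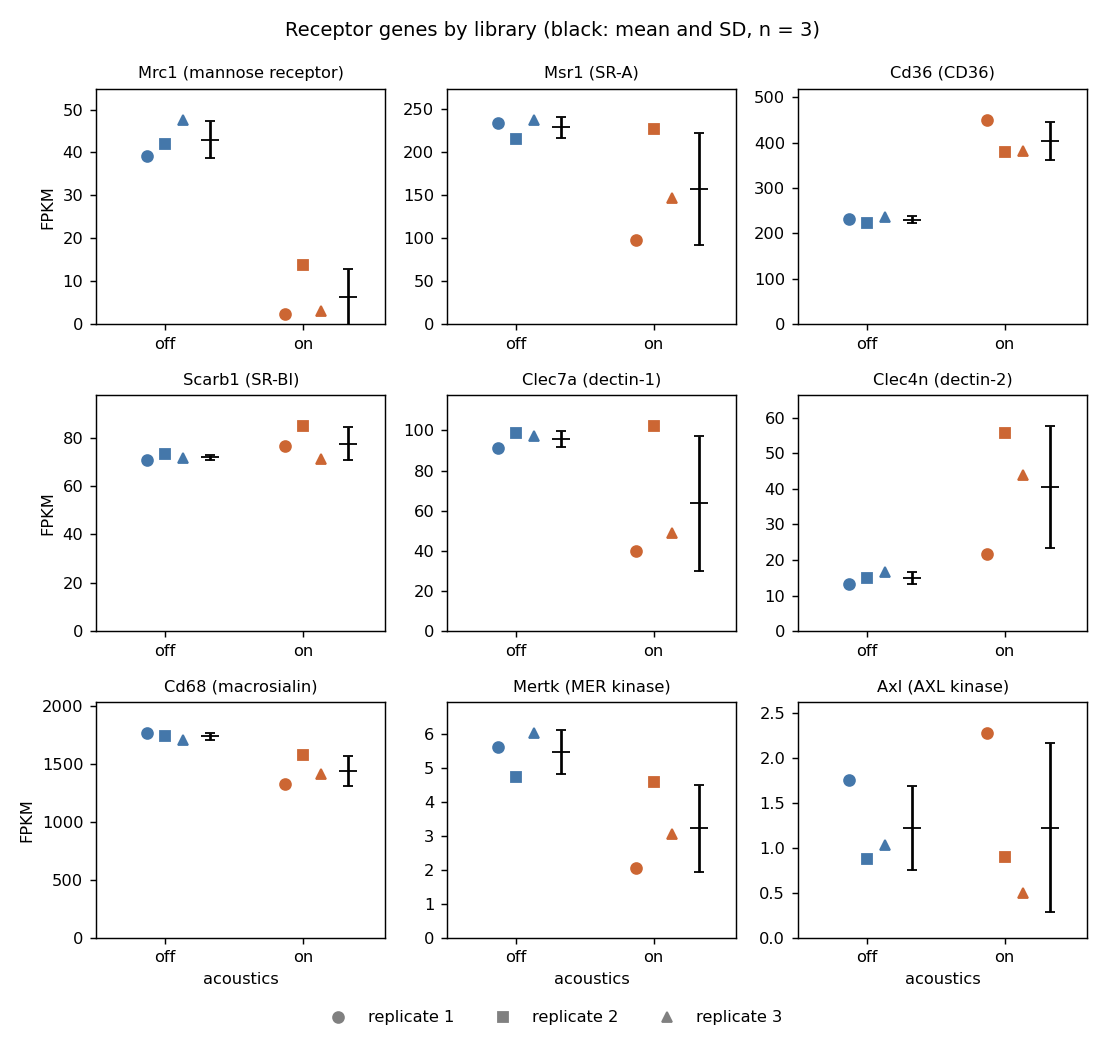
FPKM of each receptor gene in the 3 acoustics-off (blue) and 3 acoustics-on (orange) libraries, with replicate numbers by symbol and the mean with SD in black; each vertical axis starts at 0. Mrc1 is below and Cd36 above the acoustics-off range in every acoustics-on library, while for Msr1 and Clec7a acoustics-on replicate 2 (square) lies among or next to the acoustics-off values.

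With acoustics on, the mannose receptor gene fell and the CD36 gene rose, and the other 7 receptor genes did not pass the test. Mrc1 averaged 0.15 times and Cd36 1.75 times its acoustics-off level. All 9 genes passed the filter on low values, and the test was limma on log2(FPKM + 1) with Benjamini-Hochberg adjustment over the 11664 genes tested, at an adjusted p under 0.05. Over all these genes 1.5% rose and 0.574% fell, 2.07% together. The groups did not overlap for 5 receptor genes, 2 above (Cd36 and Clec4n) and 3 below (Mrc1, Cd68 and Mertk), where 34.8% of all genes tested did not overlap. The median log2 difference of the 9 genes was -0.28, and that of all genes tested was -0.03. In the authors' deposited table, Mrc1, Cd36 and Clec4n had an adjusted p under 0.05, 2 higher and 1 lower, against 7.56% of all genes given one there, 5.08% higher and 2.49% lower. Fold changes on the log2(FPKM + 1) scale understate the change of low genes such as Axl and Mertk.

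**Figure D2:**
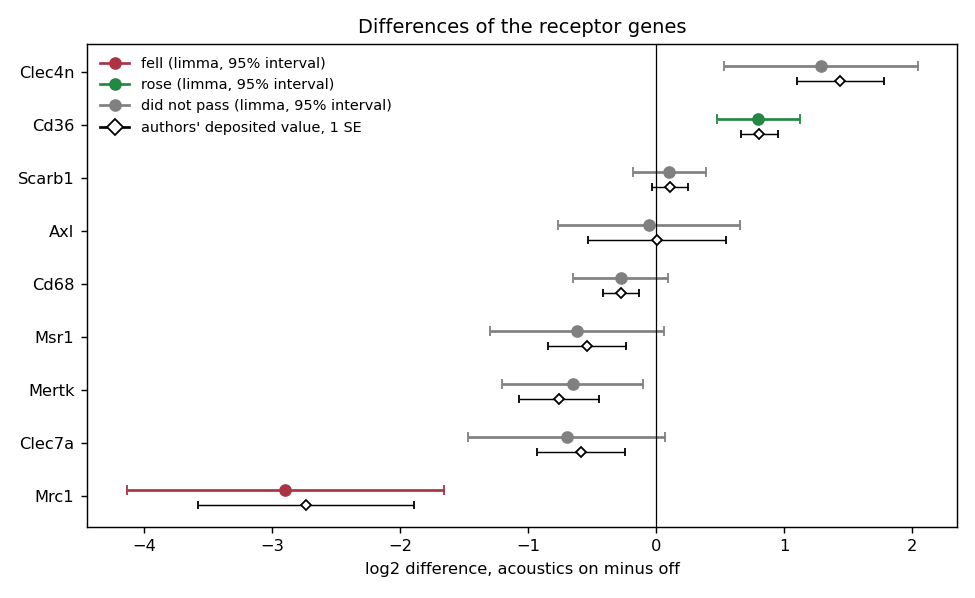
Log2 difference (acoustics on minus off) of each receptor gene from limma on log2(FPKM + 1), with its 95% interval (circles), and the authors' deposited log2 fold change with 1 SE (diamonds). Mrc1 lies at -2.90 and Cd36 at 0.80, and the intervals of Msr1, Clec7a, Cd68, Scarb1 and Axl include 0.

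The mannose receptor gene Mrc1 (chromosome 2, 14229392 to 14332057, GRCm38, 30 exons in its longest coding transcript of 5374 bases) had the widest difference of the 9. It was at 39.3, 42.0 and 47.7 FPKM in acoustics-off replicates 1, 2 and 3, and at 2.35, 13.9 and 3.07 FPKM in acoustics-on replicates 1, 2 and 3. Replicates 1 and 3 of the acoustics-on group were at 5.46% and 7.13% of the acoustics-off mean, replicate 2 kept 32.4% of it, and the groups did not overlap. The log2 difference was -2.90 (SE 0.52, 95% interval -4.14 to -1.66, limma adjusted p = 0.046). In the authors' deposited table the log2 fold change was -2.74 (SE 0.84, adjusted p = 0.021). In acoustics-off libraries Mrc1 ranked between 2030 and 2403 among the 16108 genes by level, and in acoustics-on libraries between 5281 and 9332. Its call rested on a narrow margin. It was lost without acoustics-off replicate 1, 2 or 3 (adjusted p = 0.19, 0.18 and 0.20) and without acoustics-on replicate 3 (adjusted p = 0.11), while the log2 difference stayed between -3.57 and -2.49 with any 1 library left out. The microRNA gene Mir511 lies inside Mrc1 on the same strand.

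Cd36 was the scavenger receptor gene that rose (chromosome 5, 17781690 to 17888801). It was at 232.5, 222.9 and 236.4 FPKM with acoustics off and at 450.4, 378.7 and 380.6 FPKM with acoustics on, in replicate order. Every acoustics-on library was above every acoustics-off library, at 164.2% to 195.3% of the acoustics-off mean, and the spread within each group was small. The log2 difference was 0.80 (SE 0.14, 95% interval 0.47 to 1.13, limma adjusted p = 0.039), and 0.81 (SE 0.15, adjusted p = 2.6e-06) in the authors' deposited table. The call was lost without acoustics-off replicate 1, 2 or 3 (adjusted p = 0.25, 0.25 and 0.24) and without acoustics-on replicate 2 or 3 (adjusted p = 0.056 and 0.068), with log2 differences of 0.72 to 0.84 with any 1 library left out. Without an acoustics-off library only 17 to 26 genes passed over the whole table.

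The class A receptor gene Msr1 (chromosome 8, 39581685 to 39642673), whose product binds modified low-density lipoprotein and bacterial surfaces, was at 233.5, 214.8 and 237.7 FPKM with acoustics off and at 97.8, 227.0 and 147.1 FPKM with acoustics on. Acoustics-on replicates 1 and 3 lay below the acoustics-off range and replicate 2 inside it, so the groups overlapped. Its log2 difference was -0.62 (95% interval -1.30 to 0.06, limma adjusted p = 0.28). Scarb1 (chromosome 5, 125277087 to 125341094), the receptor for high-density lipoprotein, was the steadiest of the 9. It was at 70.9, 73.1 and 71.8 FPKM off and 76.5, 84.9 and 71.2 on. The groups overlapped, and the log2 difference of 0.10 had an interval of -0.18 to 0.39 (adjusted p = 0.62). The gene Gm42633 overlaps the span of Scarb1 on the same strand, and its part in the Scarb1 level was not tested.

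The ratio of Cd36 to Msr1, which does not depend on how libraries are scaled, was chosen after their values were seen and is given as a description. It was 0.996, 1.04 and 0.99 with acoustics off and 4.61, 1.67 and 2.59 with acoustics on. The 2 transcripts were thus at nearly equal FPKM in each acoustics-off library, and Cd36 exceeded Msr1 in each acoustics-on library, least in replicate 2.

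Neither dectin gene passed the test. Clec7a (dectin-1, chromosome 6, 129461591 to 129472779) was at 91.0, 98.8 and 97.0 FPKM with acoustics off and at 39.7, 102.1 and 49.0 FPKM with acoustics on. Acoustics-on replicates 1 and 3 were at 41.5% and 51.3% of the acoustics-off mean and replicate 2 was above all acoustics-off libraries, so the groups overlapped. The log2 difference was -0.70 (95% interval -1.47 to 0.07, limma adjusted p = 0.28). It passed as lower without acoustics-on replicate 2 (-1.10, adjusted p = 0.024), where 1.17% of all genes did, and not without replicate 1 (-0.43, adjusted p = 0.36).

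Clec4n (dectin-2, chromosome 6, 123229843 to 123247021) was at 13.4, 14.9 and 16.5 FPKM with acoustics off and at 21.8, 55.7 and 44.0 FPKM with acoustics on. All acoustics-on libraries were higher than all acoustics-off libraries, replicate 1 by the least. The log2 difference was 1.29 (SE 0.32, 95% interval 0.53 to 2.04) and did not pass (limma adjusted p = 0.10). In the authors' deposited table it was 1.44 (SE 0.34, adjusted p = 0.00096), which passes. Without acoustics-on replicate 1 it passed here too (1.67, adjusted p = 0.0024), where 4.34% of all genes passed as higher, and it did not without replicate 2 (1.01, adjusted p = 0.17).

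Within each library the ratio of Clec4n to Clec7a, also chosen after the values were seen, was 0.147, 0.151 and 0.17 with acoustics off and 0.549, 0.545 and 0.898 with acoustics on. Each acoustics-on ratio was above the acoustics-off ratios, and the mean ratio was 4.26 times that with acoustics off. With trends on transcript length and GC content divided out of each library, the acoustics-on ratios were 0.424, 0.541 and 0.973 and that multiple was 3.91.

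**Figure D3:**
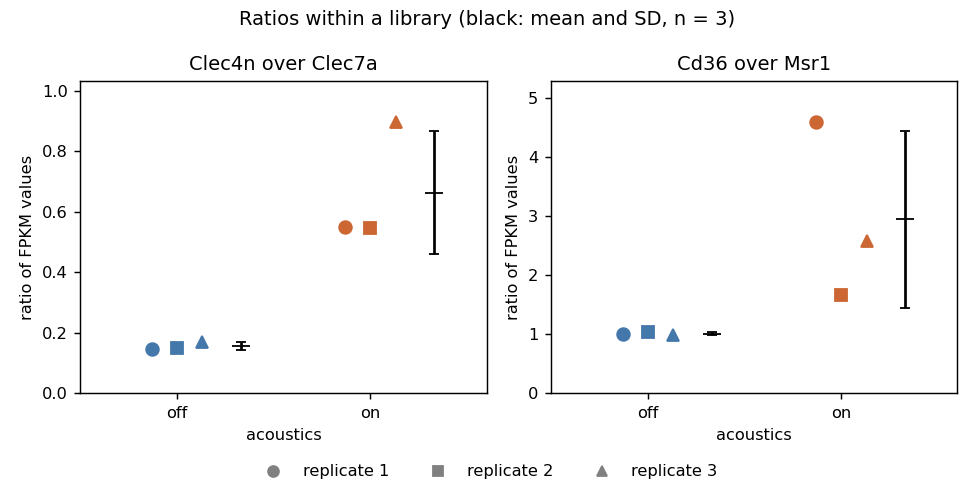
Ratio of Clec4n to Clec7a (left) and of Cd36 to Msr1 (right), from the FPKM values within each library, with the mean and SD of 3 libraries in black; vertical axes start at 0. The acoustics-off ratios lie close together, at 0.147 to 0.17 and 0.99 to 1.04, and each acoustics-on ratio is above them. Both pairs were chosen after the values were seen, so the separation is a description and no test.

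Cd68 (chromosome 11, 69664213 to 69666153) was at 1767, 1736 and 1702 FPKM with acoustics off and at 1323, 1574 and 1407 FPKM with acoustics on. All acoustics-on libraries were lower than all acoustics-off libraries, at 76.3% to 90.7% of their mean. The log2 difference of -0.28 (95% interval -0.65 to 0.09) did not pass (limma adjusted p = 0.35). By level Cd68 ranked between 87 and 146 in each of the 6 libraries.

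Of the TAM kinases, Mertk (chromosome 2, 128698956 to 128802894) was at 5.61, 4.74 and 6.03 FPKM with acoustics off and at 2.04, 4.58 and 3.05 FPKM with acoustics on. The groups did not overlap, though acoustics-on replicate 2 lay close under acoustics-off replicate 2. Its log2 difference was -0.65 (95% interval -1.20 to -0.10, limma adjusted p = 0.20). The antisense gene Gm14011 overlaps the span of Mertk, and whether their exons overlap was not examined. Whether reads were counted by strand is not given in the sources used here, so whether reads of the 2 genes were told apart is not known. The small nucleolar RNA gene Gm23172 overlaps the span of Mertk on the same strand, and its part in the Mertk level was not tested. Axl (chromosome 7, 25757273 to 25788705) was barely expressed, at 1.75, 0.88 and 1.03 FPKM off and 2.28, 0.9 and 0.49 on. Replicate 1 was the highest in each group and the groups overlapped (log2 difference -0.06, 95% interval -0.77 to 0.65, adjusted p = 0.92). Tyro3, the other member of the family, was at no more than 0.24 FPKM in any library.

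Among the acoustics-on libraries replicate 1 was lowest, replicate 3 next and replicate 2 highest for 6 of the 9 genes (Mrc1, Msr1, Clec7a, Clec4n, Cd68 and Mertk), an order that 16.2% of all genes tested had. With the length and GC correction 5 of the 9 had this order (Msr1, Scarb1, Clec7a, Clec4n and Mertk), against 19.2% of all genes tested, and Mrc1 and Cd68 no longer did. For the members with lower values in acoustics-on libraries, the order as deposited placed replicate 2 nearest to the acoustics-off libraries. Cd36 had replicate 1 highest, and so did Axl. These libraries also differed in a trend with transcript length. Across 10453 protein-coding genes, the rank correlation of the difference from acoustics off with transcript length was -0.59, -0.47 and 0.03 for replicates 1, 2 and 3 of the acoustics-on group. For the acoustics-off libraries it ran from -0.32 to 0.26. These correlations are across genes, which are no replicates, and serve as a description.

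The receptor transcripts differ widely in length, with 5374 bases for Mrc1, 4302 for Mertk, 4265 for Axl, 3636 for Msr1, 3399 for Cd36, 2521 for Scarb1, 2277 for Clec7a, 1230 for Cd68 and 1229 for Clec4n. With the trends on length and GC content divided out of each library, Mrc1 (-2.68, adjusted p = 0.037) and Cd36 (0.86, adjusted p = 0.039) still passed, where 2.79% of all genes rose and 2.14% fell. Msr1 went to -0.53, Mertk to -0.51, Clec7a to -0.77 and Cd68 to -0.53, none of them past the threshold (adjusted p = 0.19, 0.16, 0.19 and 0.16). Clec4n went to 1.05 (adjusted p = 0.18). Its corrected value in acoustics-on replicate 1 was 16.7 FPKM, inside the corrected acoustics-off range of 14.96 to 17.7, while replicates 2 and 3 stayed at 51.7 and 47.3. The groups of Mertk overlapped after the correction as well, by 4.58 FPKM in acoustics-on replicate 2 against 4.5 in acoustics-off replicate 2.

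**Figure D4:**
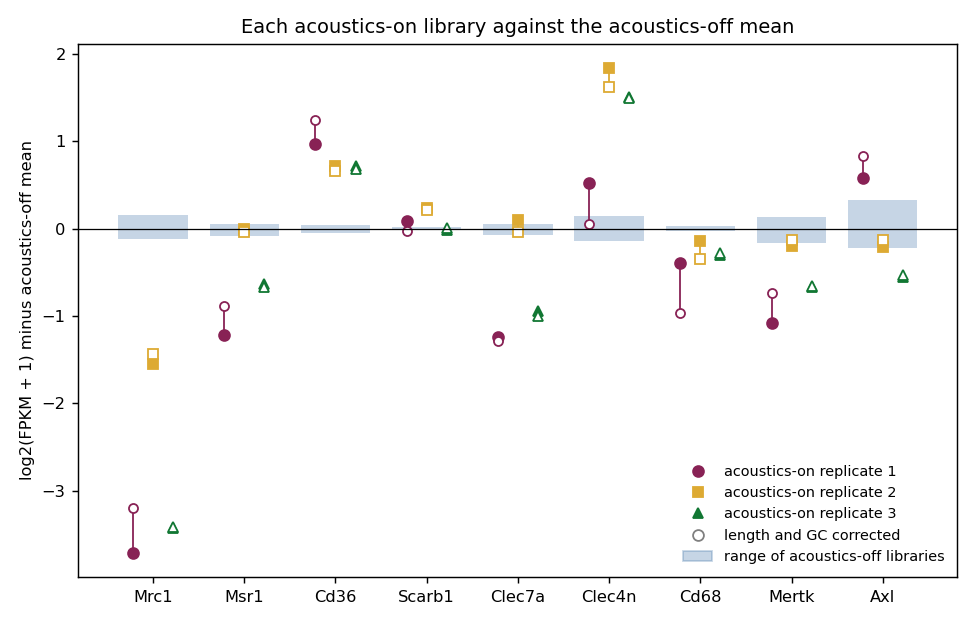
Log2(FPKM + 1) of each receptor gene in the 3 acoustics-on libraries minus the acoustics-off mean, as deposited (filled) and after the length and GC correction (open); blue bands span the 3 acoustics-off libraries. Replicate 2 (squares) lies between -0.21 and 0.09 for Msr1, Clec7a and Mertk, where replicates 1 and 3 lie between -1.25 and -0.63, and of the 3 libraries the correction moves replicate 1 most for each gene but Clec7a, where it moves replicate 2 most.

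Genes that work with these receptors were read from 7 lists. Over all genes tested 1.5% rose and 0.574% fell, with a median log2 difference of -0.03. In lists this short, few or no calls lie near that share, so the counts below describe the lists and do not show them unchanged. Of 8 other scavenger receptor genes tested, 0 rose and 0 fell (median log2 difference -0.14). The scavenger receptor and chemokine gene Cxcl16 was at 124.9, 126.5 and 133.8 FPKM off and 101.2, 124.5 and 86.5 on (adjusted p = 0.31), and Scarb2, a lysosomal relative of Cd36 and Scarb1, averaged 26.2 ± 1.78 and 19.7 ± 1.00 FPKM (adjusted p = 0.15). Stab1 averaged 12.4 ± 1.34 and 9.88 ± 2.95 FPKM (adjusted p = 0.38), and Ssc5d stayed under 1.10 FPKM (adjusted p = 0.18).

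Of 12 other C-type lectin receptor genes tested, 1 rose and 0 fell (median 0.13). The riser was Clec5a, a receptor that signals through DAP12, at 42.6, 41.7 and 43.8 FPKM off and 78.0, 73.6 and 99.2 on (log2 difference 0.94, SE 0.14, limma adjusted p = 0.027). It did not pass without any 1 acoustics-off library (adjusted p = 0.16 to 0.17). Clec4d, which lies in the same gene cluster as Clec4n, was at 187.0, 176.8 and 188.9 FPKM off and 555.5, 338.8 and 293.4 on (log2 difference 1.04, adjusted p = 0.089). The groups did not overlap, and its highest library, replicate 1, was the lowest of the acoustics-on libraries for Clec4n. With the length and GC correction Clec4d passed (0.81, limma adjusted p = 0.039), where 2.79% of all genes rose, but not with a replicate block added (adjusted p = 0.076). It also passed without acoustics-on replicate 1 (0.77, adjusted p = 0.0098), where 4.34% rose. With any other single library left out it did not pass (adjusted p = 0.091 to 0.35). Clec1a and Clec2d averaged 1.80 ± 0.16 and 8.60 ± 0.32 FPKM off and 0.85 ± 0.47 and 5.27 ± 2.02 on (adjusted p = 0.15 and 0.20).

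Of 20 dectin signalling genes tested, 0 rose and 0 fell (median -0.07). The members with the smallest p were the adaptor gene Blnk, at 67.1 ± 1.20 FPKM off and 46.1 ± 5.61 on (adjusted p = 0.093), the lipid phosphatase gene Inpp5d, at 85.1 ± 2.77 and 50.8 ± 20.8 (adjusted p = 0.22), the kinase gene Map3k14, at 7.68 ± 0.41 and 4.95 ± 0.73 (adjusted p = 0.11), and the paracaspase gene Malt1, at 4.35 ± 0.40 and 6.14 ± 1.03 (adjusted p = 0.21).

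Of 20 tested genes of the TAM family, its bridging proteins and dead-cell engulfment, 0 rose and 0 fell (median -0.14). Gas6, which bridges MERTK and AXL to dying cells, was at 121.5, 135.0 and 149.9 FPKM off and 59.3, 117.9 and 50.8 on, again with replicate 2 nearest to acoustics off (log2 difference -0.92, adjusted p = 0.18). Mfge8, a bridging protein that works through integrins, was at 39.3, 40.1 and 40.8 FPKM off and 108.1, 47.8 and 86.4 on (log2 difference 0.92, adjusted p = 0.16), with replicate 2 once more the nearest. Itgb5, an integrin subunit that binds it, averaged 25.3 ± 3.02 and 13.7 ± 3.37 FPKM (adjusted p = 0.087), and the engulfment gene Dock1 averaged 8.71 ± 0.55 and 5.07 ± 1.83 FPKM (adjusted p = 0.19).

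Of 18 tested genes that handle lipid with CD36 and SR-BI, 0 rose and 0 fell (median 0.06). The lipid droplet gene Plin2 came nearest, at 145.5, 153.1 and 144.5 FPKM off and 450.7, 281.6 and 268.9 on (log2 difference 1.13, adjusted p = 0.052). The fatty acid binding protein gene Fabp4 was at 0.84, 0.88 and 0.91 FPKM off and 10.2, 2.37 and 4.82 on (log2 difference 1.68, adjusted p = 0.090). The cholesterol exporter genes Abca1 and Abcg1 were lower in each acoustics-on library, Abca1 at 13.4 ± 1.57 FPKM off and 3.69 ± 2.18 on (adjusted p = 0.082) and Abcg1 at 20.2 ± 1.18 and 12.8 ± 3.95 (adjusted p = 0.17). With the length and GC correction, Plin2 (1.00, limma adjusted p = 0.022) and Abca1 (-1.41, adjusted p = 0.035) passed. In that setting 2.79% of all genes rose and 2.14% fell. Neither gene passed with a replicate block added to it (adjusted p = 0.067 for Plin2 and 0.087 for Abca1).

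Of 6 LAMP family and lysosomal membrane genes tested, 0 rose and 0 fell (median -0.19). The tetraspanin gene Cd63 averaged 966.2 ± 56.9 and 1311 ± 241 FPKM (adjusted p = 0.27) and Laptm5 averaged 1300 ± 54.98 and 761.2 ± 290.3 FPKM (adjusted p = 0.21). Cd164 averaged 17.5 ± 0.32 and 12.6 ± 1.99 FPKM (adjusted p = 0.17), and Tmem192 averaged 31.9 ± 0.66 and 45.5 ± 9.63 FPKM (adjusted p = 0.19).

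Of 17 regulators of macrophage receptor genes tested and reported, 1 rose and 0 fell (median -0.30). The transcription factor gene Maf was at 19.4, 20.5 and 21.3 FPKM off and 2.22, 8.21 and 1.63 on, just outside the threshold (log2 difference -2.33, adjusted p = 0.051). As in Mrc1, acoustics-on replicate 2 was the highest of its group. Tfec, a relative of the lysosomal gene regulator MITF, rose from 5.75 ± 0.13 to 11.3 ± 1.74 FPKM (log2 difference 0.86, adjusted p = 0.034), and passed with acoustics-on replicate 1 left out but with no other single library left out (adjusted p = 0.058 to 0.21). The growth factor receptor gene Csf1r averaged 809.3 ± 45.9 and 457.4 ± 109.4 FPKM (adjusted p = 0.096), and the interferon regulatory factor gene Irf8 averaged 115.7 ± 2.24 and 77.0 ± 14.4 FPKM (adjusted p = 0.11).

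**Figure D5:**
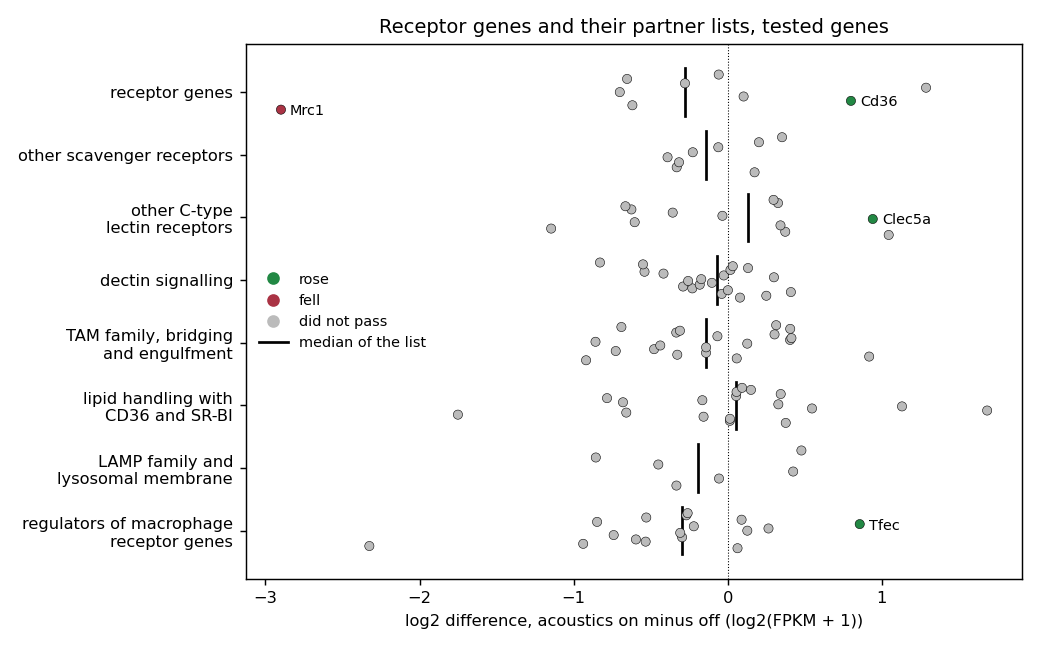
Log2 difference (acoustics on minus off) of the 9 receptor genes and of the tested genes of 7 partner lists, with the median of each list as a black line. Mrc1, Cd36, Clec5a and Tfec passed the test, and list medians lie between -0.30 and 0.13.

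Genes with the pattern most like that of each called receptor were found by the root mean square distance between centred log2(FPKM + 1) profiles over the 6 libraries, among 10794 genes. For Mrc1 the nearest were Gm15655 (distance 0.19), the selenoprotein P gene Selenop (0.24) and Maf (0.35). Selenop was at 135.3, 140.8 and 161.8 FPKM off and 10.1, 58.3 and 8.40 on, with acoustics-on replicate 2 again the highest of its group. For Cd36 the nearest were Gm11427 (0.04), Dnajc22 (0.04) and Pnp (0.06). The purine nucleoside phosphorylase gene Pnp was at 24.9, 24.3 and 24.0 FPKM off and 51.4, 40.0 and 37.9 on. Many genes share a profile that is mainly a step between the groups, and 6 libraries are few, so the distances describe these libraries alone.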

How the data were processed

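RNA-seq of RAW264.7 cells covered 3 libraries per group. The labels name a ribosomal depletion kit and also polyA RNA, which was not resolved. The submitters' processing notes list DESeq2 1.38.2, Salmon 1.4.0, STAR 2.7.11, Trim Galore 0.6.8 and the build GRCm38. Which step each served, and how it was set, is not given in the sources used here. Expression was deposited by the authors as FPKM per gene. The authors' deposited table of their comparison holds log2 fold changes with SE, a signal (the mean normalised count), a test score and p-values. Adjusted p-values were missing there for 1586 genes and stayed missing.

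The members and lists were chosen with earlier results of these data known. Genes that reached an FPKM of 0.5 in 3 or more libraries were tested with limma 3.58.1 (R 4.3.3) on log2(FPKM + 1), acoustics on minus off. The fit used a trended, robust prior and was checked on simulated data. The simulation gave both groups the same relative spread, so the check does not cover the wider spread of the receptor genes among acoustics-on libraries. Named genes are the 9 members and, per list, those past the threshold, filled up to 4 by the smallest p. A gene listed among the regulators is not reported here and is left out of that list's counts and median. The length and GC correction fitted each library by loess (span 0.5) on length and GC content of the longest coding transcript (GENCODE M21) and divided the fit out. The low values step as whole reads in 56.7% to 67.0% of cases (within 0.05), giving relative depths of 0.96 to 1.075, and reads were not recovered. No pair of libraries was identical. Alternatives were other pseudocounts, filters, scalings and priors, library weights, a replicate block, the correction and each library left out.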

Additional observations from a re-analysis of the deposited data

How the results depend on the processing

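Mrc1 stayed lower and Cd36, Clec4n and Msr1 kept their direction in all alternatives run, but calls changed. Receptor genes that rose went from 1 to 0 with no filter (Cd36 0.80, adjusted p = 0.056), median scaling (0.87, adjusted p = 0.066), the replicate block (0.80, adjusted p = 0.11) and the correction with a replicate block (0.86, adjusted p = 0.084). They went to 2 with library weights (Clec4n 1.71) and with the correction without acoustics-on replicate 1 (Clec4n 1.56), settings in which 1098 and 689 of all genes rose and 784 and 602 fell. Library weights also brought Mrc1 to -1.96, Msr1 to -0.16 and Clec7a to -0.13. Receptor genes that fell went from 1 to 0 with a pseudocount of 0.1 (Mrc1 -3.17, adjusted p = 0.056), no filter (-2.90, adjusted p = 0.083) and the correction with a replicate block (-2.68, adjusted p = 0.068). With any 1 library left out, the number that rose was 0 to 2 and the number that fell 0 to 2. Log2 differences then were -3.57 to -2.49 for Mrc1, 0.72 to 0.84 for Cd36, 1.01 to 1.67 for Clec4n, -1.10 to -0.43 for Clec7a and -0.38 to 0.19 for Axl. With the correction and without acoustics-on replicate 2, a setting added after seeing the data in which 583 of all genes rose and 588 fell, 4 receptor genes fell (Mrc1, Msr1 -0.78, Clec7a -1.14, Mertk -0.70). Without replicate 1 instead, Msr1 (-0.35), Clec7a (-0.51) and Mertk (-0.40) did not pass. With the correction and without replicate 2, Scarb1 (-0.0087) and the scavenger receptor gene Stab1 (0.14) reversed. Axl, near 0, reversed there (0.15) and with the correction (0.054 with or without a block). The cause was not tested. Over all genes 175 rose and 67 fell. The numbers were 325 and 249 with the correction, 54 and 19 with it and a block, 116 and 34 with no filter and 209 and 111 with quantile normalization. Leaving out a library gave 14 to 498 and 3 to 357. Across genes, same-numbered libraries did not deviate together (correlations -0.07, -0.02 and -0.004). Trends over a whole library enter these correlations, so they cannot settle whether the numbers pair the libraries. With the replicate block 133 genes rose and 46 fell.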
